A study of Mus musculus with 12 samples.

Results

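The genes of cholesterol and fatty acid synthesis were followed through the differentiation of C2C12 cells, an established line of mouse myoblasts that stop dividing, fuse into myotubes and switch on muscle genes when serum is lowered. The set holds 36 genes: 18 enzymes of sterol synthesis, 5 regulators of the pathway, 10 enzymes that make, elongate or desaturate fatty acids or supply their building blocks, and 3 genes of sterol transport. They were picked by symbol with their signals at the 4 stages on all 12 arrays already known, and found on the array through the RefSeq accession of each probe. All 36 had a probe (38 probes in all, among 19259 named genes on the array), and 35 had a probe bright enough to be tested, of 13742 such genes. Because the choice used these same arrays, the members' differences are given as a description with their standard errors, and no p-value is given for them.

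Growing cells were kept in medium with 10% fetal bovine serum to 80 to 90% confluence (proliferation, 3 arrays). They were then moved to medium with 2% horse serum and taken after 2, 5 or 8 days (3 arrays each). Total RNA from each sample was labelled with Cy3 and hybridised alone to an Agilent one-colour array. The labels number the 3 samples of a stage and do not say whether they came from separate cultures, so the errors measure the spread between these samples, which may be technical. Serum and stage changed together between proliferation and day 2 and cannot be told apart, whereas days 2, 5 and 8 were all in horse serum. C2C12 is 1 cell line, and each culture is a mixture in which fewer cells of a kind and less RNA per cell cannot be told apart.

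Cells build cholesterol from acetyl-CoA through mevalonate, isoprenoid diphosphates, squalene and lanosterol, and a last series of enzymes removes methyl groups and moves or reduces double bonds. When sterols in the endoplasmic reticulum are low, the escort protein SCAP carries the SREBP transcription factors to the Golgi, where they are cut and released to the nucleus. INSIG proteins hold SCAP back when sterols are plentiful, and the liver X receptors (LXR), which sense oxysterols, turn on the exporters ABCA1 and ABCG1 and the Srebf1 gene. SREBP-2 is known mainly for sterol genes and SREBP-1c for fatty acid genes.

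A probe's level is its log2 signal minus the 75th percentile of its array, so levels of one probe can be compared across arrays but not with those of another probe. A difference is called when its Benjamini-Hochberg adjusted p in a limma fit over all 22959 tested probes is under 0.05, and every error after a difference is the standard error of that fit, with 3 arrays per stage. Arrays of the same stage correlated at 0.985 to 0.994 and arrays of different stages at 0.929 to 0.985 over all tested probes. The 12 arrays lay on 3 slides of 4 arrays: slide 1 held the 3 proliferation arrays and day 2 replicate 1, slide 2 held day 2 replicates 2 and 3 with day 5 replicates 1 and 2, and slide 3 held day 5 replicate 3 and the 3 day 8 arrays. Each step between neighbouring stages was therefore also measured within 1 slide, and those within-slide differences are given beside the main ones. Muscle markers followed the labels: 4 of 6 rose and 1 fell by day 2, 6 of 6 were higher at day 5 and 4 of 6 at day 8, with the embryonic myosin Myh3 higher by 8.38 ± 0.21 at day 5 (limma adjusted p = 1.53e-09). Of 5 markers of dividing cells, 1 fell by day 2 and all 5 by day 5 and by day 8 (median log2 difference -3.26 at day 8), and their part in the changes described below was not tested. Of 4 fibroblast markers 1 rose by day 2, and of 5 macrophage markers 3 had a tested probe and 2 of those rose, a part that was not tested either.

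Most of the sterol synthesis enzymes were highest at day 2. Of the 17 tested, 15 rose between proliferation and day 2 and none fell, with a median log2 difference of 1.53 against 0.07 over all tested probes. Over all 35 members 29 rose and none fell, while 18.3% of all tested probes were called higher and 12.3% lower at that step. Between day 2 and day 5, with the serum unchanged, all 17 sterol enzymes fell, with a median of -1.03. In that step 26 of the 35 members fell and 1 rose, against 15.7% and 14.3% of all probes. In 15 of the 17 enzymes all 3 day 2 arrays lay above all 9 other arrays, as they did in 21 of the 35 members and in 5.85% of all tested probes. Nothing is read from these shares, since the members were chosen with the same stages known. The spots of 17 of the 35 members, most of them sterol enzymes, carried the scanner software's flag for uneven pixels on all 12 arrays. With such spots left out and the array percentile kept, 10 of the 12 members still measured rose at day 2 and 5 of 10 fell by day 5. Only 5 of the 17 sterol enzymes could be measured at day 2 in this way (median 1.74), so the rise of the others could not be checked without flagged spots.

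**Figure D1:**
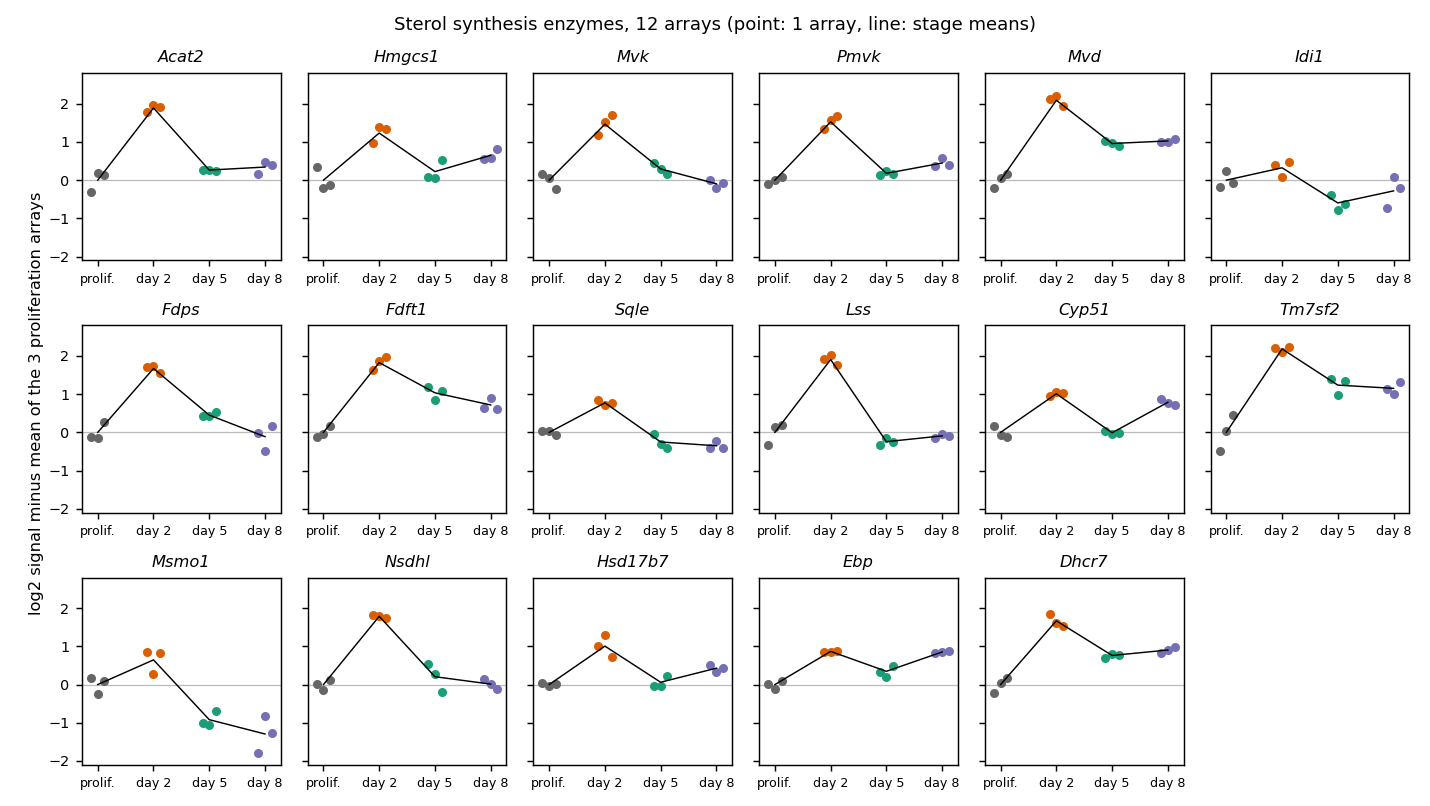
Levels of the 17 tested sterol synthesis enzymes on each of the 12 arrays, in pathway order. The horizontal axis is the stage and the vertical axis the log2 signal minus the mean of the 3 proliferation arrays, points are single arrays and lines join stage means. The 3 day 2 points are the highest in 15 of the 17 panels, all but Idi1 and Ebp.

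Within slides the pattern held for most enzymes. Day 2 replicate 1 lay above the mean of the proliferation arrays beside it for all 17 enzymes, with a median of 1.33, and with the slide as a block in the fit 15 were called higher, against 9.74% of all probes. On slide 2 the day 5 arrays lay below the day 2 arrays for all 17, with a median of -1.07, and 16 were called lower with the slide as a block, against 11.4% of all probes. Over all 35 members the block left 23 called higher at day 2 and 22 called lower from day 2 to day 5. No array of day 5 or day 8 shared a slide with the proliferation arrays. Block differences from proliferation at those days have larger errors, for the enzyme Tm7sf2 0.56 at day 8 against 0.22 in the main fit. A lost call there cannot tell this lower precision from a shift between slides.

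The first enzymes make mevalonate. Acat2, the cytosolic thiolase that joins acetyl-CoA units, read 1.56, 2.04 and 1.99 on the proliferation arrays, 3.64, 3.84 and 3.79 at day 2, 2.14, 2.14 and 2.10 at day 5 and 2.03, 2.34 and 2.25 at day 8. Its day 2 arrays stood clear of all others, and it rose by 1.89 ± 0.15 at day 2 (3.71-fold) and fell by 1.63 ± 0.15 by day 5. Hmgcs1, which forms HMG-CoA, had stage means of 3.58 ± 0.29 (SD, n = 3) in proliferation, 4.81 ± 0.23 at day 2, 3.80 ± 0.27 at day 5 and 4.23 ± 0.14 at day 8. It rose by 1.23 ± 0.20 at day 2. Its day 8 difference from proliferation, 0.65 ± 0.20, was called in the main fit, but not in 3 of the 12 fits that each left out 1 array, and turned to -0.22 with the slide as a block.

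The next enzymes carry mevalonate to the isoprenoid diphosphates. Mvk, mevalonate kinase, read 2.83, 2.73 and 2.45 in proliferation, 3.86, 4.18 and 4.37 at day 2, 3.11, 2.96 and 2.82 at day 5 and 2.67, 2.45 and 2.60 at day 8, a rise of 1.47 ± 0.16 followed by a fall of 1.17 ± 0.16. The next kinase, Pmvk, rose 2.88-fold, from a mean of 3.11 ± 0.10 to 4.63 ± 0.17, and stood at 3.29 ± 0.04 and 3.56 ± 0.11 (SD, n = 3) at days 5 and 8. The decarboxylase Mvd read 1.73, 1.97 and 2.08 in proliferation, 4.06, 4.13 and 3.86 at day 2, 2.96, 2.89 and 2.81 at day 5 and 2.93, 2.92 and 3.01 at day 8. Mvd thus rose 4.26-fold by day 2 and kept part of the rise: all 9 later arrays lay above the 3 proliferation arrays, and it was still 2.04-fold higher at day 8 (1.03 ± 0.13; 1.20 with the slide as a block). Idi1, the isomerase that follows, was the exception, with a day 2 difference of 0.32 ± 0.21 that was not called and means of 0.93 ± 0.22, 1.26 ± 0.20, 0.34 ± 0.20 and 0.65 ± 0.41 over the 4 stages. Its lower level at day 5 than in proliferation, -0.60 ± 0.21, was not called in 6 of the 12 fits that left out 1 array. Fdps, which makes farnesyl diphosphate, read 4.31, 4.29 and 4.72 in proliferation, 6.15, 6.18 and 6.0 at day 2, 4.85, 4.86 and 4.96 at day 5 and 4.43, 3.95 and 4.6 at day 8. Its rise of 1.67 ± 0.18 at day 2 was 3.19-fold, and by day 8 the difference from proliferation was -0.11 ± 0.18, not called.

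Squalene and lanosterol come next. Fdft1, squalene synthase, read -4.02, -3.93 and -3.71 in proliferation, -2.25, -2.02 and -1.91 at day 2, -2.71, -3.05 and -2.80 at day 5 and -3.24, -2.98 and -3.28 at day 8. It rose 3.55-fold, and all 9 later arrays stayed above proliferation, although its day 8 difference of 0.72 ± 0.15 was 0.35 and no longer called with the slide as a block. Sqle, the squalene epoxidase that is another control point of the pathway, rose less, by 0.77 ± 0.13, from 5.51 ± 0.05 to 6.29 ± 0.07, and stood at 5.26 ± 0.19 and 5.16 ± 0.10 at days 5 and 8. Its small day 8 decrease, -0.35 ± 0.13, was called in the main fit, but not in 5 of 12 fits that left out 1 array, and was 0.01 with the slide as a block. Lss, lanosterol synthase, read -0.31, 0.16 and 0.23 in proliferation, 1.94, 2.07 and 1.80 at day 2, -0.31, -0.12 and -0.21 at day 5 and -0.12, -0.00 and -0.06 at day 8. Lss rose 3.75-fold and fell 4.44-fold, and its differences from proliferation at days 5 and 8 were -0.24 ± 0.16 and -0.09 ± 0.16, neither of them called.

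The last enzymes turn lanosterol into cholesterol. Cyp51, the lanosterol demethylase, had means of -2.46 ± 0.15, -1.45 ± 0.06, -2.47 ± 0.03 and -1.67 ± 0.07 over the 4 stages (SD, n = 3). Its course had 2 high points, since it rose by 1.01 ± 0.12 at day 2, fell by 1.02 ± 0.12 by day 5 and rose again by 0.80 ± 0.12 by day 8, and within slide 3 the last step measured 0.81. Tm7sf2, a sterol reductase, read 0.23, 0.76 and 1.19 in proliferation, 2.94, 2.83 and 2.96 at day 2, 2.13, 1.69 and 2.07 at day 5 and 1.86, 1.74 and 2.04 at day 8. It had the largest rise of the 35 members at day 2, 2.19 ± 0.22 (4.55-fold), and all 9 later arrays were above proliferation. At day 8 it was still higher by 1.15 ± 0.22, a call that did not hold with the slide as a block (1.04). Msmo1, the sterol methyl oxidase, read 3.91, 3.51 and 3.84 in proliferation, 4.6, 4.03 and 4.57 at day 2, 2.75, 2.68 and 3.07 at day 5 and 1.96, 2.93 and 2.48 at day 8. It was the enzyme that ended lowest against its start: its day 2 difference of 0.65 ± 0.25 was not called, and it was below proliferation by -1.29 ± 0.25 at day 8 (-1.34 and not called with the slide as a block). Nsdhl, which works with Msmo1 on the same methyl groups, read -5.31, -5.47 and -5.23 in proliferation, -3.51, -3.54 and -3.59 at day 2, -4.78, -5.06 and -5.54 at day 5 and -5.19, -5.33 and -5.45 at day 8. Nsdhl rose 3.45-fold and lost the rise by day 5, when its difference from proliferation was 0.21 ± 0.18.

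Hsd17b7, the ketosteroid reductase of the same complex, had means of 2.16 ± 0.04, 3.16 ± 0.29, 2.22 ± 0.15 and 2.59 ± 0.10, with a rise of 1.01 ± 0.15 at day 2. Its day 8 call (0.43 ± 0.15) did not hold in 5 of 12 fits that left out 1 array or with the slide as a block. Ebp, the sterol isomerase, had means of 4.17 ± 0.10, 5.04 ± 0.02, 4.51 ± 0.14 and 5.02 ± 0.02. Its differences from proliferation were 0.87 ± 0.11 at day 2 and 0.85 ± 0.11 at day 8, and its rise between days 5 and 8, 0.51 ± 0.11, was not called within slide 3 (0.36) or in 4 of 12 fits that left out 1 array. Dhcr7, which catalyses the last reduction to cholesterol, read 2.45, 2.71 and 2.84 in proliferation, 4.51, 4.28 and 4.21 at day 2, 3.37, 3.46 and 3.45 at day 5 and 3.49, 3.56 and 3.66 at day 8. It rose 3.18-fold and stayed 1.87-fold above proliferation at day 8, where the slide block gave 1.14 and kept the call. Dhcr7 carried the flag for uneven pixels on 7 of the 12 arrays, 2 of them at each later stage. With flagged spots left out and the array percentile kept, its day 8 difference was 0.78, from too few arrays to check the call. Sc5d, the desaturase before Dhcr7, was not tested, because its probe was well above background on 1 proliferation array and on none of the 9 later ones. Its means ran from -7.35 ± 1.43 in proliferation to -9.62 ± 0.65 at day 5, where signal and background cannot be separated.

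Against proliferation, 5 of the 17 enzymes were higher and 2 lower at day 5, with a median of 0.22, and 9 were higher and 2 lower at day 8, with a median of 0.43. Over all 35 members the counts were 11 higher and 6 lower at day 5, beside 23.7% and 23.9% of all probes, and 18 higher and 6 lower at day 8, beside 25.3% and 29.6%. With the slide as a block 2 of the 17 enzymes, Mvd and Dhcr7, were called higher at each of these times and none lower, a share near that of all probes under the same block (12.6% higher and 10.2% lower at day 5, 9.83% and 7.56% at day 8). Between days 5 and 8 the set was nearly flat, with 3 members called higher and none lower (5.88% and 6.84% of all probes): Cyp51, Ebp and Abca1.

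Promoters were read for what these genes share beyond their signal. RefSeq windows of 300 bases around the annotated start (build GRCm38.p6) were found for 28 of the 36 members, including 15 sterol enzymes, 5 regulators, 7 fatty acid genes and 1 transport gene. None of the motifs searched contains another. Each window was searched on both strands for CCAAT, the letters bound by NF-Y, for TCACNCCAC, the classical sterol regulatory element, for CACGTG, an E-box that SREBP can also bind, and for GGGCGG, the GC box of Sp1. CCAAT stood in a window of 14 of the 15 sterol enzymes, against 41.1% of all 27025 genes in the table, and GGGCGG in 14 of 15, against 38.2%. CACGTG stood in 3 of the 15 enzymes, against 8.09% of all genes. TCACNCCAC stood in 1 member of 28, Hmgcs1, against 1.44% of all genes. Among the 7 fatty acid genes CCAAT was found in 4 and CACGTG in none, and among the 5 regulators CCAAT was found in 4 and CACGTG in Scap and Insig1. GGGCGG was found in 4 of the 7 fatty acid genes and in all 5 regulators. The shares of all genes include genes that were not tested on the array. These are letter matches in short windows, and a gene with several windows counted once if any of them matched.

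The windows below are those of Acss2 and Tm7sf2, the fatty acid and sterol members furthest above proliferation at day 5, of Elovl6 and Msmo1, the furthest below, and of Hmgcs1, added after the search because it alone held the sterol element. Capitals mark CCAAT, read as ATTGG on the other strand, and TCACNCCAC. They lie at chr2:155517793-155518092 (Acss2, plus strand), chr19:6067801-6068100 (Tm7sf2, minus strand), chr3:129532136-129532435 (Elovl6, plus strand), chr8:64733529-64733828 (Msmo1, minus strand) and chr13:119690101-119690400 (Hmgcs1, plus strand), and each is printed on the strand of its gene.
Acss2: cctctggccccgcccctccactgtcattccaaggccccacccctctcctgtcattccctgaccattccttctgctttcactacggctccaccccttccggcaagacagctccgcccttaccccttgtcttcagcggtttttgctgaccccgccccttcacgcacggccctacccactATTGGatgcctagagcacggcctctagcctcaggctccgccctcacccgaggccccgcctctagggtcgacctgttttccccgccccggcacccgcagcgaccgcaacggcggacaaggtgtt
Tm7sf2: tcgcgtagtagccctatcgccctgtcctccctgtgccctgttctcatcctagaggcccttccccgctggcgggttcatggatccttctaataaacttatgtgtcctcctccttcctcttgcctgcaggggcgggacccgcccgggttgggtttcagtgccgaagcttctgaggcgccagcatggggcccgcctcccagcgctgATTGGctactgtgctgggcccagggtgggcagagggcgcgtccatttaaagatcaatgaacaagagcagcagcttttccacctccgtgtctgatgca
Elovl6: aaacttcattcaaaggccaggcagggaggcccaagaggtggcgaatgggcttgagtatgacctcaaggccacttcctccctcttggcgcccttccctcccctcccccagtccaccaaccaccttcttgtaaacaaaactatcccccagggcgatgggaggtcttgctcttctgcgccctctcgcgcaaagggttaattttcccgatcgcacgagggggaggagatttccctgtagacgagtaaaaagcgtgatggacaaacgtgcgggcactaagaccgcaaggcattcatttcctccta
Msmo1: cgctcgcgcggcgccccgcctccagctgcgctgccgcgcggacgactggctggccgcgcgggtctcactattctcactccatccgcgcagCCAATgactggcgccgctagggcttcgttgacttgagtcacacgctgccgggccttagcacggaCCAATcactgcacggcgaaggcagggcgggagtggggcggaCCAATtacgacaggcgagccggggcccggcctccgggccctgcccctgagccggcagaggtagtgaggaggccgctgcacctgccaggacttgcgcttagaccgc
Hmgcs1: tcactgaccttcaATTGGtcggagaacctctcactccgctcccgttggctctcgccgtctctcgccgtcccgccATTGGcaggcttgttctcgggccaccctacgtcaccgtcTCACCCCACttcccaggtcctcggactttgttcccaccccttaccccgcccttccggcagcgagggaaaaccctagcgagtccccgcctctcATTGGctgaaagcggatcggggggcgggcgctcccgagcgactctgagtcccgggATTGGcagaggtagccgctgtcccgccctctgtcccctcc
Hmgcs1 held 4 CCAAT matches, with the sterol element starting at position -137 from the start. Msmo1 held 3 CCAAT matches and Tm7sf2 held 1 at -47. Whether the matches bear on the courses of these genes was not tested. Acss2 held 1 at -73 and Elovl6 held none.

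Among the regulators, the SREBP genes took different courses. Srebf1, which encodes SREBP-1, read -0.12, 0.10 and 0.19 in proliferation, 1.5, 1.57 and 1.63 at day 2, 1.88, 1.87 and 1.72 at day 5 and 1.83, 1.79 and 1.74 at day 8. It rose 2.84-fold by day 2 and stayed up, 3.4-fold higher at day 5 and 3.32-fold at day 8, and the slide block kept all 3 calls, with 1.79 at day 8. Between day 2 and day 5, when the sterol enzymes fell, Srebf1 differed by 0.26 ± 0.12, which was not called. Srebf2, which encodes SREBP-2, read 0.21, 0.73 and -0.23 in proliferation, 0.36, 0.14 and 0.72 at day 2, -0.03, -0.58 and -0.79 at day 5 and -0.76, -0.68 and -0.84 at day 8. Its proliferation arrays spread over nearly 1 log2 unit and overlapped with those of days 2 and 5, and its day 2 difference was 0.17 ± 0.26, not called. From day 2 to day 5 Srebf2 was called lower, by 0.87 ± 0.26, but not within slide 2 (-0.73) or in 4 of 12 fits that left out 1 array. Its day 5 difference from proliferation, -0.70 ± 0.26, was called in the main fit, but not in 9 of those 12 fits or with the slide as a block (-0.60). All 3 day 8 arrays lay below all 6 arrays of proliferation and day 2, a difference of -1.0 ± 0.26 from proliferation that the slide block put at -0.58, not called. The measurements are of mRNA, and say nothing of how much of either protein was cut and nuclear.

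Scap, the escort of SREBP, read 4.51, 4.55 and 4.47 in proliferation, 4.99, 5.12 and 4.91 at day 2, 4.69, 4.98 and 4.59 at day 5 and 4.59, 4.20 and 4.57 at day 8. Its day 2 arrays were above the proliferation arrays by 0.49 ± 0.15, a small rise that was not called in 5 of 12 fits that left out 1 array, nor within slide 1 (0.48). A second Scap probe gave 0.58 ± 0.15 at the same step. Insig1, which retains SCAP and is itself a classical SREBP target, read 3.21, 3.37 and 3.19 in proliferation, 5.01, 5.07 and 5.08 at day 2, 3.76, 3.46 and 3.57 at day 5 and 3.67, 4.05 and 3.31 at day 8. Insig1 was likewise highest at day 2, with a 3.48-fold rise by day 2, a 2.75-fold fall by day 5 and a day 8 difference from proliferation of 0.42 ± 0.17 that was not called. Insig2, its less sterol-dependent relative, had means of 2.94 ± 0.21, 3.47 ± 0.20, 3.33 ± 0.28 and 3.88 ± 0.14 over the stages, and was highest at day 8, 0.94 ± 0.18 above proliferation (0.87 and not called with the slide as a block). Its day 2 difference, 0.54 ± 0.18, was not called in 8 of 12 fits that left out 1 array, and its second probe gave -0.23 ± 0.45 at day 2 and 0.22 ± 0.45 at day 8, neither of them called.

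**Figure D2:**
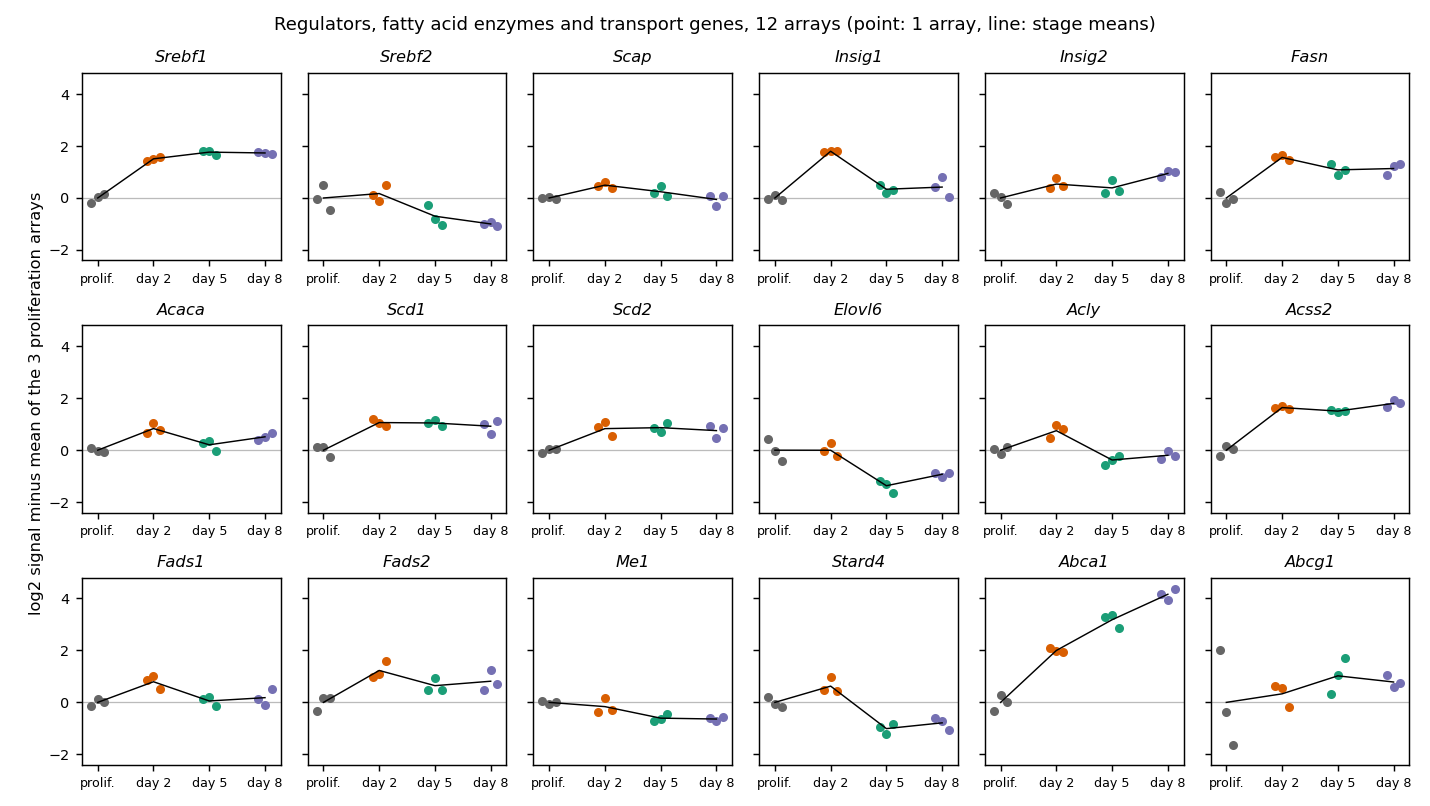
Levels of the 5 regulators, 10 fatty acid genes and 3 transport genes on each of the 12 arrays. The horizontal axis is the stage and the vertical axis the log2 signal minus the mean of the 3 proliferation arrays, points are single arrays and lines join stage means. Insig1 peaks at day 2, Srebf1, Scd1, Scd2 and Acss2 stay up after day 2, and Abca1 goes on rising to day 8.

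Most fatty acid genes rose at day 2 as well, and 4 of them were not called lower by day 5. Of the 10, 8 rose and none fell at day 2, with a median log2 difference of 0.83 (0.87 within slide 1). With the slide as a block 5 were called higher at day 2, since Acly, Fads1 and Fads2 dropped out. From day 2 to day 5, 6 fell and the other 4 (Scd1, Scd2, Acss2 and Fads2) were not called, with a median of -0.53. The block left 4 called lower, without Fasn (-0.47) and Fads1 (-0.61), and the small Me1 difference of -0.44 ± 0.15 was not called in 10 of 12 fits that left out 1 array. At day 8, 6 were higher than in proliferation and 2 lower, with a median of 0.63, although the slide block left 1 higher, Acss2, and 1 lower, Me1. At day 5 the counts were 4 higher and 2 lower, with a median of 0.43, and the block gave 3 higher (Fasn, Scd1 and Acss2) and 2 lower (Me1 and Acly). Of all tested probes 18.3% were higher at day 2 (9.74% with the block) and 15.7% lower from day 2 to day 5 (11.4%). At day 5 23.7% were higher and 23.9% lower (12.6% and 10.2%), and at day 8 25.3% and 29.6% (9.83% and 7.56%). Under the block the day 8 counts were near these shares. Nothing is read from the counts, since the members were chosen with these stages known.

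Genes that supply acetyl-CoA and NADPH took different courses. Acss2, the cytosolic acetyl-CoA synthetase, read -0.55, -0.16 and -0.28 in proliferation, 1.31, 1.39 and 1.24 at day 2, 1.21, 1.14 and 1.18 at day 5 and 1.32, 1.61 and 1.49 at day 8. It rose 3.12-fold by day 2 and was 3.48-fold higher at day 8, with no overlap between the 9 later arrays and proliferation and 1.79 at day 8 with the slide as a block. Acly, which makes acetyl-CoA from citrate, had means of 3.55 ± 0.13, 4.31 ± 0.26, 3.18 ± 0.17 and 3.36 ± 0.15 (SD, n = 3): its rise of 0.75 ± 0.16 at day 2 was 0.47 and not called within slide 1, and it fell by 1.13 ± 0.16 by day 5. Me1, the cytosolic malic enzyme that supplies NADPH, had a day 2 difference of -0.16 ± 0.15 that was not called and was lower at days 5 and 8 (-0.61 ± 0.15 and -0.64 ± 0.15), with means of 3.12 ± 0.06, 2.95 ± 0.28, 2.51 ± 0.14 and 2.48 ± 0.08. The slide block made the Me1 differences larger, at -0.99 and -1.18.

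The enzymes that build the chain both rose at day 2. Fasn, fatty acid synthase, read -1.97, -2.36 and -2.22 in proliferation, -0.62, -0.54 and -0.71 at day 2, -0.87, -1.31 and -1.12 at day 5 and -1.29, -0.97 and -0.89 at day 8. It rose 2.95-fold and was 2.19-fold above proliferation at day 8 (1.13 ± 0.16; 1.16 and not called with the slide as a block). The drop from day 2 to day 5, -0.48 ± 0.16, was not called in 9 of 12 fits that left out 1 array. Acaca, the acetyl-CoA carboxylase that makes malonyl-CoA, had means of 2.78 ± 0.09, 3.61 ± 0.19, 2.99 ± 0.19 and 3.30 ± 0.14, a rise of 0.83 ± 0.15 at day 2 and a fall of 0.63 ± 0.15 by day 5.

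The 4 desaturases were called higher at day 2 and the elongase was not. Scd1, a stearoyl-CoA desaturase, had means of 5.93 ± 0.22, 6.99 ± 0.15, 6.98 ± 0.12 and 6.85 ± 0.27, and its relative Scd2 had 6.90 ± 0.08, 7.73 ± 0.27, 7.77 ± 0.16 and 7.66 ± 0.25. Both stood above proliferation on all 9 later arrays, with differences at day 5 of 1.05 ± 0.17 and 0.87 ± 0.18, and neither changed by a called amount from day 2 to day 5 (-0.02 ± 0.17 and 0.04 ± 0.18). Fads1 and Fads2, the desaturases of polyunsaturated fatty acids, rose by 0.79 ± 0.18 and 1.23 ± 0.25 at day 2, and within slide 1 the values were 0.85 and 0.98, not called. Fads1 had means of 5.81 ± 0.12, 6.60 ± 0.24, 5.86 ± 0.18 and 5.99 ± 0.30, so that its level at day 5 was back near its start, and Fads2 had -2.21 ± 0.28, -0.98 ± 0.34, -1.56 ± 0.26 and -1.39 ± 0.38. Elovl6, which elongates palmitate, had means of 1.41 ± 0.42, 1.40 ± 0.26, 0.04 ± 0.24 and 0.48 ± 0.09. Its stage means in proliferation and at day 2 differed by less than their SD, and it then fell 2.58-fold between day 2 and day 5, a step that kept its call within slide 2 at -1.25. Of 8 adipocyte markers 6, among them Adipoq, Plin1 and Fabp4, were not well above background on all 3 arrays of any stage, and Pparg fell by 1.54 ± 0.14 by day 8 (limma adjusted p = 5.70e-06).

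The 3 transport genes each went their own way. Stard4, a carrier that moves sterol between membranes and an SREBP target, read 2.35, 2.07 and 1.95 in proliferation, 2.58, 3.10 and 2.56 at day 2, 1.16, 0.90 and 1.28 at day 5 and 1.53, 1.41 and 1.08 at day 8. Its day 2 arrays were the highest, but the day 2 difference of 0.63 ± 0.19 was not called in 3 of 12 fits that left out 1 array or within slide 1 (0.46). It then fell 3.11-fold by day 5, to 2.01-fold below proliferation, and both calls stood with the slide as a block. Abca1, the exporter that loads cholesterol onto apolipoproteins and is a classical LXR target, read -2.93, -2.31 and -2.59 in proliferation, -0.52, -0.65 and -0.67 at day 2, 0.69, 0.76 and 0.26 at day 5 and 1.57, 1.35 and 1.73 at day 8. It rose at every step and no stage overlapped another: 3.99-fold by day 2, 9.06-fold by day 5 and 17.9-fold by day 8 against proliferation, and within slides the 3 steps measured 2.09, 1.38 and 1.29. Abcg1, a partner exporter, was near background: its probe was well above it on 1, 1, 3 and 2 of the 3 arrays of the 4 stages, and its 3 proliferation arrays read -5.90, -8.26 and -9.55. None of its differences was called, with an error of 0.73 on each, but this depended on proliferation replicate 1. Without that array the log2 difference from proliferation was 2.02 at day 5 and 1.79 at day 8, both called. The proliferation arrays then left had signals of 5.47 and 2.48, beside negative-control medians of 5.39 and 2.42, so these differences were measured against background. The probe entered the test only through day 5, where its mean was highest, and nothing is read from these calls. The day 8 difference was also called with normexp background correction (0.53). In the setting without uneven spots the day 5 difference was called (1.81), but Abcg1 was flagged on 0 arrays. The scaling of that setting put the median of all probes at 0.80 at day 5, so the call says nothing more about Abcg1.

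Levels that stayed above proliferation were counted over single arrays. In 13 of the 35 members all 9 later arrays lay above all 3 proliferation arrays, as in 14.7% of all tested probes: the sterol enzymes Pmvk, Mvd, Fdft1, Tm7sf2, Ebp and Dhcr7, the fatty acid genes Fasn, Scd1, Scd2, Acss2 and Fads2, and Srebf1 and Abca1. These made up 6 of 17 sterol enzymes and 5 of 10 fatty acid genes. Pmvk (0.18 ± 0.13) and Fads2 (0.64 ± 0.25) were among them without being called at day 5, where the slide block put Pmvk at -0.105. Of the later arrays only day 2 replicate 1 shared slide 1 with the proliferation arrays, so stage and slide cannot be told apart in this count. Against 5.85% of all tested probes, genes whose day 2 arrays stood above all others made up 15 of 17 sterol enzymes and 4 of 10 fatty acid genes (Fasn, Acaca, Acly and Fads1), with Insig1 and Stard4. Srebf2, Scap, Insig2, Idi1, Elovl6, Me1 and Abcg1 did neither. The difference between sterol and fatty acid genes was not tested, since the members were chosen on these values.

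**Figure D3:**
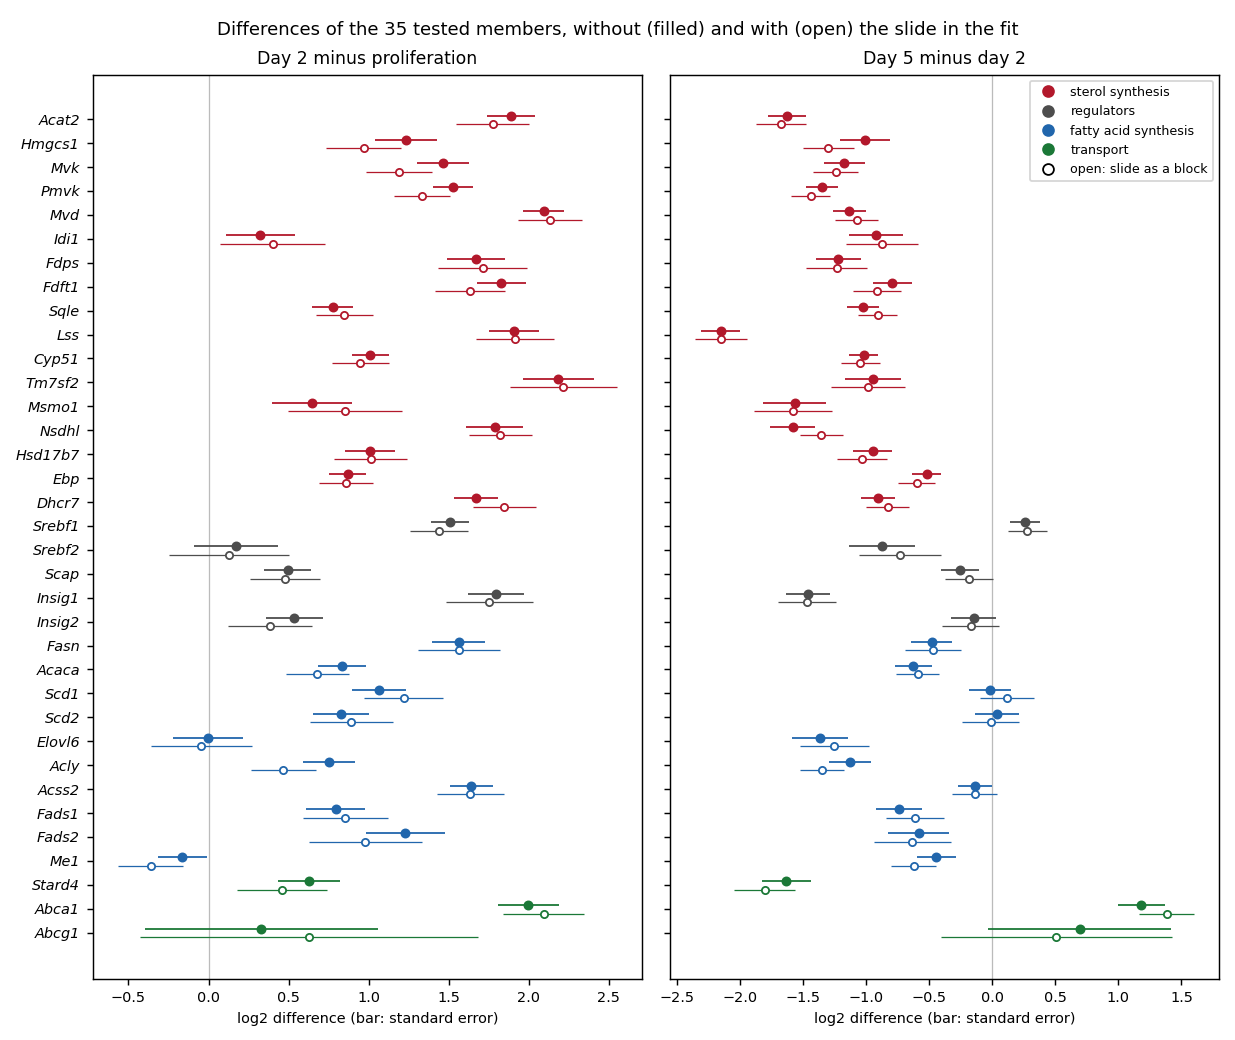
Log2 differences of the 35 tested members between day 2 and proliferation (left) and between day 5 and day 2 (right), with standard errors as bars. Filled points are from the main fit and open points have the slide as a block, which equals the difference within 1 slide. The 17 sterol enzymes (red) lie right of 0 at day 2 and left of 0 at day 5, with the filled and the open points on the same side for all 17.

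Genes of the same pathways outside the set were counted in lists drawn up by function, with earlier results of these data known. The genes named are called ones with the largest differences from proliferation on these same arrays. Their adjusted p-values therefore describe the fit and are no independent support. The counts of the lists stand beside the shares of all tested probes called against proliferation. Those were 18.3% higher and 12.3% lower at day 2, 23.7% and 23.9% at day 5, and 25.3% and 29.6% at day 8. With the slide as a block those shares were 9.74% and 5.72%, 12.6% and 10.2%, and 9.83% and 7.56%. Of 9 genes that process SREBP or sense sterols, 2 rose and 2 fell at day 2, with a median log2 difference of 0.11, and under the slide block none of these 4 calls held. Among the largest log2 differences from proliferation that were called were those of Rnf139, a sterol-sensing ubiquitin ligase, with -1.10 ± 0.29 at day 2 (limma adjusted p = 0.0152) and Tmem97, with -0.98 ± 0.15 at day 8 (adjusted p = 2.05e-04). Neither call held with the slide as a block, but the Tmem97 fall between days 2 and 5, -1.02 ± 0.15, did (-1.01), and its 3 day 2 arrays were above all others. Of 9 genes of the isoprenoid branch, which leaves the pathway after Fdps, 1 rose and 4 fell at day 2, with a median of -0.07. With the slide as a block none was higher and 2 were lower at day 2, and the median turned to 0.08. Pdss1, which makes the side chain of coenzyme Q, fell by day 2 and again by day 5, and was 6.2-fold below proliferation at day 8 (adjusted p = 3.97e-06) and kept the call with the slide as a block. Ggps1, which makes geranylgeranyl diphosphate from the product of Fdps, was 2.41-fold lower at day 5 (adjusted p = 0.00267; -0.96 and not called with the block). Nus1, a subunit of the dolichol synthase, was lower at day 2 and higher at day 8, by 0.72 ± 0.13 (adjusted p = 7.88e-04; 0.29 with the block, not called).

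Of 14 tested genes of sterol uptake, trafficking and storage, 5 were called higher and 3 lower than in proliferation at each of days 2, 5 and 8. The slide block left 2 and 0 at day 2, 3 and 2 at day 5, and 2 and 1 at day 8. The VLDL receptor gene Vldlr rose through the whole course, 3.69-fold by day 5 and 16.3-fold by day 8 (adjusted p = 1.48e-08), with 3.76 under the slide block. Mylip, the LXR-driven ligase that degrades lipoprotein receptors, was 6.57-fold higher at day 8 (adjusted p = 1.77e-07; 2.78 with the block). Nceh1, a cholesteryl ester hydrolase, was lower at day 8 with -2.96 ± 0.36 (adjusted p = 4.70e-05), which the slide block cut to -1.18, not called.

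Of 10 tested genes of LXR signalling and efflux, Abca1 and Abcg1 not counted, 4 rose at day 2, 6 at day 5 and 6 at day 8, and none was called lower than in proliferation. Their medians were 0.55, 0.89 and 0.63, and the slide block left 3, 3 and 2 called higher. Ch25h, which makes the LXR ligand 25-hydroxycholesterol, was 6.47-fold higher at day 5 and 10.2-fold at day 8 (adjusted p = 1.99e-08; 2.85 with the block). Pltp, a phospholipid transfer protein and LXR target, was 3.77-fold higher at day 8 (adjusted p = 2.37e-06; 2.31 with the block). Abca7, a relative of Abca1, was highest at day 2, 3.02-fold above proliferation (adjusted p = 1.40e-04; 1.53 with the block).

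Of 22 tested further genes of fatty acid and glycerolipid synthesis, 6 rose and none fell at day 2, 6 rose and 6 fell by day 5, and 10 rose and 7 fell by day 8. The slide block left 5 higher and 0 lower at day 2, 3 and 1 at day 5, and 2 and 1 at day 8. Acsl3, an acyl-CoA synthetase, was 4.4-fold higher at day 8 (adjusted p = 2.78e-07; 1.85 with the slide as a block). Elovl4, which makes very long chains, was 3.0-fold lower at day 8 (adjusted p = 0.00175; -1.49 with the block, not called). Fads3 had a log2 difference of -2.35 ± 0.49 at day 8 in the main fit (adjusted p = 0.00211) but of -0.08 with the slide as a block.

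**Figure D4:**
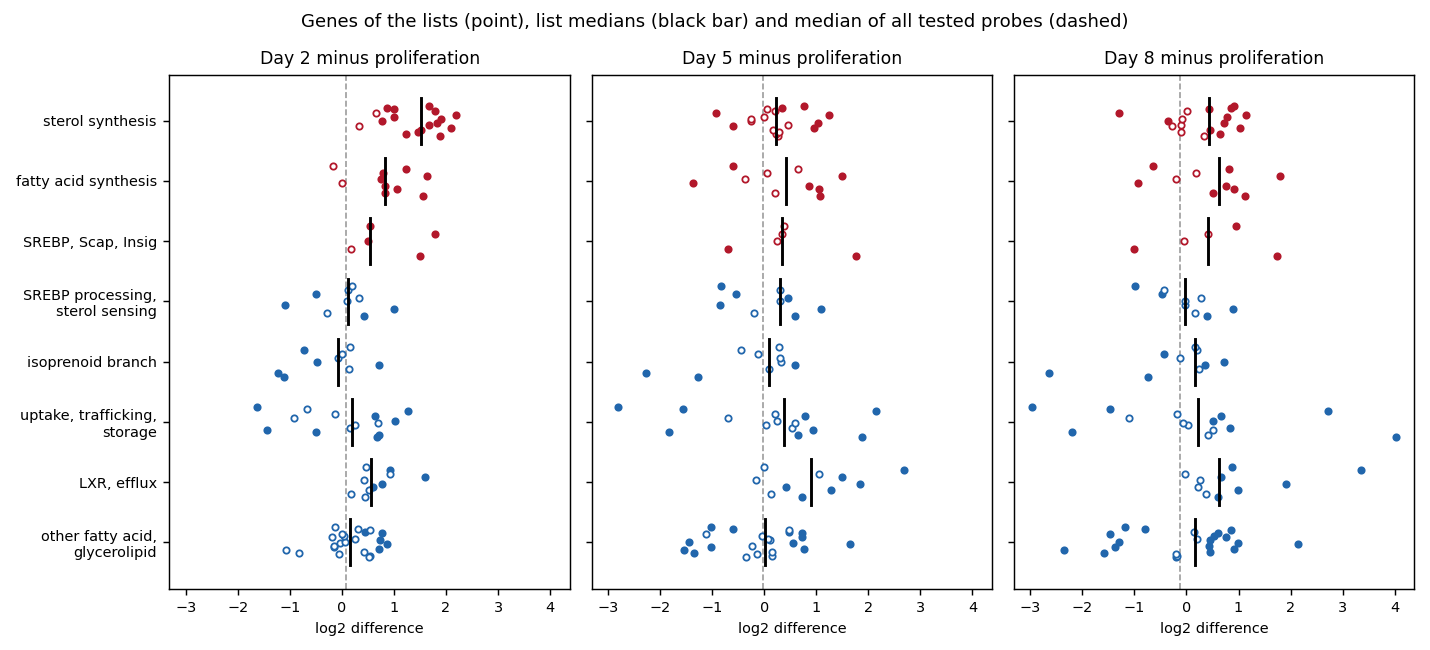
Log2 differences from proliferation at day 2, day 5 and day 8 for the genes of 8 lists, members in red and other genes of the pathways in blue, filled where called. Black bars are list medians and the dashed line is the median of all tested probes. At day 2 the sterol enzymes have a median of 1.53 against 0.83 for the fatty acid members and -0.07 for the isoprenoid branch (0.08 with the slide as a block).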

How the data were processed

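Total RNA (1 µg) from C2C12 cells at 4 stages, 3 samples each, was extracted with Trizol, labelled with Cy3 and hybridised to one-colour Agilent arrays, per the labels' protocols. The deposited files hold spot intensities from the authors' scans. The software was Agilent Feature Extraction, in version 10.5.1.1 according to what is listed per the submitters' processing notes. Its processed intensity of the green channel was used, as named per the file headers, and the background step behind it is not given in the sources used here. From it, log2 values were taken, spots of a probe were averaged without population outliers, and the array's 75th percentile was subtracted. Of 37246 probes, 22959 were tested, each flagged well above background by the software on every array of some stage. No probe was saturated, 56.9 to 69.5% of spots were well above background, and the number of arrays limits the precision. Differences were fitted with limma 3.58.1 (R 4.3.3) over all 12 arrays and adjusted by Benjamini-Hochberg at 0.05. The tested probe of highest mean signal stood for its gene, named through RefSeq accessions, which paired 22216 probes with a symbol.

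The members and lists were chosen with earlier results of these data known, so members have no p-values. The adjusted p-values given for other genes describe the fit and are no independent support. All members are named. Values of single arrays are given for the 16 tested members whose stage means spanned most and for Srebf2 and Scap, and other lists give the called genes with the 3 largest differences from proliferation, except 1 gene that is not reported here. Alternatives were another background correction, normalization, percentile, probe filter and probe choice, leaving out uneven spots or 1 array, and the slide or replicate number as a block. The code was tested on simulated data. Figures were drawn with matplotlib 3.10.9.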

Additional observations from a re-analysis of the deposited data

How the results depend on the processing

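The 35 tested members have a difference in each of 5 comparisons. A difference kept its status when it was called in the same direction in both fits or was not called in either. Quantile normalization kept the status of 164 of these differences, normexp background correction of 157, no filter on dim probes of 163 and the median over a gene's probes of 173. Deviations of same-numbered arrays from their stage means correlated at -0.16 to 0.24 (median 0.0053), with 5 of 18 pairs over 0.1. Those of differently numbered arrays correlated at -0.26 to 0.22 (median -0.014). With 3 arrays per stage these values cannot decide whether the replicate numbers pair the arrays. With the replicate number as a replicate block, 29 members were called higher at day 2, and 12 higher and 4 lower at day 5. That block called 17 higher at day 8 and 24 lower from day 2 to day 5. Of the differences 169 kept their status, 5 lost the call and 1 gained it. With the slide as a block 137 kept their status, 35 lost the call with the sign unchanged and 1 gained it. Another 2 lost it with a change of sign, namely Hmgcs1 (-0.2167) and Sqle (0.0065) at day 8 against proliferation, neither of them called. The block gave a sterol median of 1.3349 at day 2, -0.0198 at day 5 and 0.1737 at day 8 against proliferation, a fatty acid median of 0.2945 at day 5, and 7 members higher and 3 lower at day 5 and 5 higher and 1 lower at day 8. The sterol median at day 2 was 1.3546 with normexp, 1.4388 when the array percentile came from the probes detected everywhere, and 1.3649 with quantile normalization. Normexp put the sterol median at 0.5241 at day 8 and called 6 members higher and 1 lower from day 5 to day 8, and quantile normalization put the fatty acid median at 0.6994 at day 2. Leaving out uneven spots measured 10 to 14 members, so fewer were counted. With the percentile from the remaining spots, 11 were higher at day 2, 7 higher and 0 lower at day 5 and 8 higher and 0 lower at day 8 against proliferation, 0 higher and 1 lower from day 2 to day 5, and 0 higher from day 5 to day 8. The sterol medians were then 2.1539, 1.1219 and 1.1014 against proliferation and -0.0834 from day 5 to day 8. The fatty acid medians were 1.4287, 1.6572 and 1.4885, 0.134 from day 2 to day 5 and -0.2492 from day 5 to day 8. Cyp51, not called at day 5 in the main fit (-0.0103), was called at 0.7793, although no proliferation or day 5 array carried its flag. The day 2 arrays stood above all others in 2 of 4 members and the later arrays above proliferation in 3 of 4. That scaling moved the median of all probes to 0.7281 at day 2 and 0.7974 at day 5. With the percentile from all spots, 10 members were higher at day 2, 3 higher and 0 lower at day 5, 8 higher and 1 lower at day 8, 0 higher and 5 lower from day 2 to day 5 and 1 higher from day 5 to day 8. The sterol medians were then 1.7367 at day 2, 0.7176 at day 8, -1.1402 from day 2 to day 5 and 0.186 from day 5 to day 8. The fatty acid medians were 0.8675 at day 5, 0.7755 at day 8, -0.1726 from day 2 to day 5 and -0.1144 from day 5 to day 8, and the counts over single arrays were 2 and 2 of 4. Both counts over single arrays, and the signal column used for normexp, were chosen after seeing the data. Without 1 array at a time the sterol median was 1.4564 to 1.6042 at day 2, -1.1288 to -1.0089 from day 2 to day 5 and 0.0566 to 0.1691 from day 5 to day 8, and 26 to 29 members rose at day 2 and 23 to 25 fell by day 5. Among all called probes 59.9% were higher at day 2 in the main setting, 73.0% with normexp and 96.4% without uneven spots. At day 5 the shares were 49.8%, 60.2% and 88.5%, and at day 8 46.1%, 60.5% and 79.6%, with 56.6% under the slide block. Where the cause of a move is not named, the cause was not tested. Dim probes such as those of Abcg1 and Sc5d limit what can be measured.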

Other observations

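The genes of this paragraph were chosen after their values were seen, from the lists of other lipid genes. Their adjusted p-values therefore describe the fit and are no independent support. Stard5, a sterol carrier related to Stard4, rose by 1.02 ± 0.15 at day 2 (limma adjusted p = 8.66e-04) and fell by 0.77 ± 0.15 by day 5 (adjusted p = 0.0029), and within slides the steps measured 0.94 and -0.74. Slc25a1, the carrier that exports citrate from mitochondria for Acly, rose by 0.73 ± 0.16 at day 2 (adjusted p = 0.00675) and fell by 0.61 ± 0.16 by day 5 (adjusted p = 0.014; -0.51 within slide 2, not called). G6pdx, the NADPH-making first enzyme of the pentose phosphate pathway, fell by 0.91 ± 0.16 from day 2 to day 5 (adjusted p = 0.00143; -1.05 within slide 2), and its 3 day 2 arrays lay above all others. Acsl5, an acyl-CoA synthetase, fell by 1.52 ± 0.18 over the same step (adjusted p = 7.92e-05; -1.71 within slide 2), while its relative Acsl4 rose by 0.59 ± 0.15 (adjusted p = 0.0111; 0.60 within slide 2). Gpam, which starts glycerolipid synthesis, rose by 0.93 ± 0.18 between days 2 and 5 (adjusted p = 0.00233; 0.82 within slide 2). Dgat1, which makes triacylglycerol, and Tecr, the reductase that ends chain elongation, were higher than in proliferation at each later stage, by 0.60 ± 0.17 and 0.91 ± 0.16 at day 8 (adjusted p = 0.011 and 7.80e-04), with block values of 1.14 (not called) and 1.5.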
